A study of Equus caballus with 2 samples.

Results

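The solute carriers (SLC) are the largest group of membrane transport proteins, and they are numbered by family. They move amino acids, sugars, ions, metals, vitamins, nucleosides and other small molecules across membranes, mostly by coupling to a gradient or by exchange. In fibroblasts they supply glucose and amino acids for matrix synthesis, take up iron and zinc, and bring in ascorbate, a cofactor of the enzymes that hydroxylate collagen. Here, members were all genes whose symbol begins with SLC, a family number, A and a further number, from families 1 to 24 and 26 to 52, with a mean of at least 5 counts per 1000000 UMIs (CPM) over both libraries. Family 25, which holds the mitochondrial carriers, was left out. Of the 21426 genes listed, 274 had such a symbol, and 107 of these reached the minimum. Another 5196 had no symbol, so any carriers among them were missed. Because the members were chosen by their mean level in these libraries, that level is given as a description only.

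Passaged endometrial fibroblasts of 4 mares were grown on hydrogels coated with collagen, and for each treatment equal numbers of cells per mare were combined into 1 library. Control cells were kept in medium with BSA in place of serum, and the treated cells had human recombinant TGF-β1, a driver of myofibroblast conversion, added to the same medium at 10 ng/ml for 24 h. All mares were in the mid-luteal phase, with healthy endometria or mild fibrotic alterations. Transcripts were counted by unique molecular identifiers (UMIs), each of which marks 1 captured transcript. Cells entered with 20000 or more UMIs, 3500 or more genes and mitochondrial UMIs below 4%, which kept 3865 of 4384 control and 4513 of 5124 TGF-β1 barcodes. They held 210497250 and 219731144 UMIs, with medians of 50313 and 43142 per cell. Doublets were not removed, and 2 barcode sequences occurred among the kept cells of both libraries.

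With a single library for each treatment and no assignment of cells to mares, there was no replicate and no test was made, and treatment and library preparation cannot be told apart. Log2 ratios divide the level after TGF-β1 by that of the control, from summed UMIs, and exact binomial 95% intervals cover counting error only. "Higher" and "lower" describe these 2 libraries. After each cell was thinned to 20000 UMIs, transcripts of the fibroblast markers *VIM* and *COL1A1* were found in all kept cells, and those of *COL1A2*, *COL3A1*, *DCN* and *LUM* in at least 99.7%. The other 3 fibroblast markers were found in fewer TGF-β1 than control cells, *PDGFRA* in 55.8% and 25.3%, *PDGFRB* in 74.7% and 60.0% and *THY1* in 93.0% and 72.2%. The level of *VIM* was 4399 and 2240 CPM, and all 9 markers summed to 21715 and 21795 CPM. *EPCAM* was found in 0 and 1 cells, and *PTPRC* in 0 cells of either library. The 4 epithelial markers found summed to 114 CPM in the control and 4.74 CPM in the TGF-β1 library, nearly all of it *KRT8*, which was found in 25.6% and 3.21% of thinned cells. The endothelial markers summed to 0.784 and 0.410 CPM, the immune markers to 56.6 and 52.9 CPM, most of it *CD68*, and the 9 cycling markers to 71.7 and 52.6 CPM. The part of these cells in the ratios below was not tested.

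The symbol rule also took in 4 genes that are no carriers, namely *SLC2A4RG*, *SLC9A3R2*, *SLC4A1AP* and *SLC7A6OS*, and these are kept apart in what follows. The remaining 103 carriers came from 40 families and were sorted into 11 substrate classes by family, with members of unknown substrate placed with their family. Although the families are best known from the plasma membrane, at least 22 of the 103 are usually placed on internal membranes. Examples are the Golgi carriers of family 35 and most zinc exporters of family 30. Over the 107 members, the mean level ranged from 5.06 to 289 CPM with a median of 17.2 CPM. The members just above the minimum were *SLC2A10* (5.06 CPM) and *SLC38A7* (5.17 CPM), and those just below it were *SLC27A1* (4.85 CPM) and *SLC22A4* (4.75 CPM). Of the 167 genes below the minimum, 41 had 3 or fewer UMIs in both libraries. Another 38 had at least 1 CPM, of which 2 were more than 2-fold higher and 3 more than 2-fold lower, where 6.09% of the 2759 genes of 1 to under 5 CPM were higher and 6.85% lower by that much.

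Of the 107 members, 7 were more than 2-fold higher in the TGF-β1 library (6.54%, against 2.67% of the 9357 genes with at least 5 CPM) and 3 were more than 2-fold lower (2.80%, against 2.46%). In either direction these were 10 members (9.35%, against 5.13%). The higher ones were *SLC1A3*, *SLC24A2*, *SLC40A1*, *SLC11A2*, *SLC41A2*, *SLC46A2* and *SLC22A15*, and the lower ones were *SLC29A1*, *SLC48A1* and the non-carrier *SLC2A4RG*. By sign alone, 68 members were higher and 39 lower, where 50.0% of the 9357 genes were higher and 50.0% lower. At a limit of 1.5-fold, 20 members were higher (18.7%, against 6.41%) and 8 lower (7.48%, against 7.41%). The share of members was above that of all genes on the higher side and close to it on the lower side. The median log2 ratio was 0.10 over the members and -0.00042 over the 9357 genes. In 14 members, the interval included 0 and a difference was not detectable at this depth. One library was below 5 CPM in 6 members, *SLC24A2*, *SLC41A2*, *SLC48A1*, *SLC12A9*, *SLC38A7* and *SLC2A10*.

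**Figure D1:**
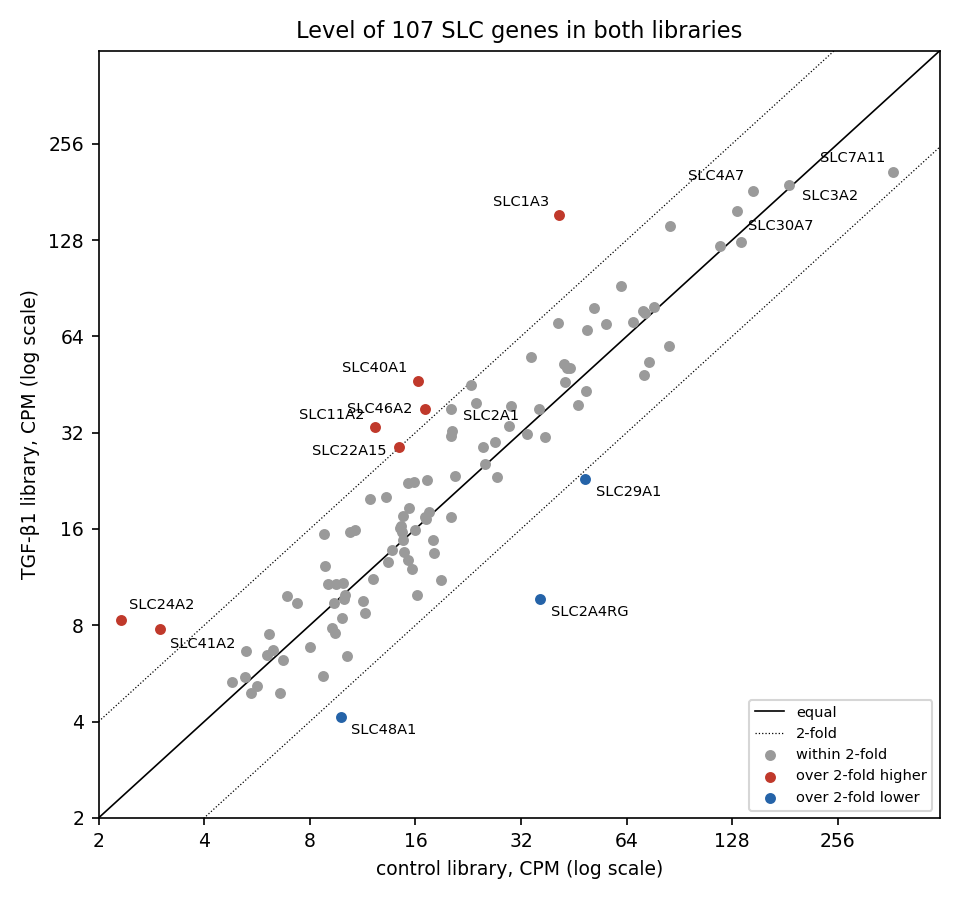
Level of each of the 107 members in the control library (x axis) and the TGF-β1 library (y axis), in CPM on log scales, with 1 point per gene. The solid line marks equal levels and the dotted lines a 2-fold difference. Of the 10 genes outside the dotted lines, 7 are higher (red) and 3 lower (blue) after TGF-β1.

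Mitochondrial and ATP-driven transporters are given for comparison. Of 27 mitochondrial carriers of family 25 with at least 5 CPM, 0 were more than 2-fold higher and 1 was more than 2-fold lower, and their median log2 ratio was 0.01. Of 15 ATP-binding cassette transporters, 0 passed 2-fold in either direction, with a median of 0.10. At 1.5-fold in either direction, the shares were 14.8% of the mitochondrial carriers, 26.7% of the cassette transporters, 26.2% of the members and 13.8% of all genes. The differences between these groups and the members were not tested.

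The substrate classes differed in their medians. At the minimum of 5 CPM, organic cation and anion carriers had the highest median log2 ratio, 0.66 over 6 members, of which 5 were higher. The vitamin and choline carriers followed with 0.28 over 8 members, and the carriers of protons, sodium, potassium, chloride, bicarbonate and calcium with 0.22 over 12. Metal and heme carriers had a median of 0.17 and amino acid and peptide carriers 0.10, over 23 members each. The carriers of sugars and polyols had 0.10 over 11 members, those of nucleotide sugars 0.03 over 5, and those of fatty acids, acetyl-CoA and bile acids 0.01 over 6. The symbol rule takes only the A genes of family 35, so the nucleotide sugar class leaves out those with another letter. Among classes of more than 1 carrier, the mono- and dicarboxylate carriers alone had a negative median (-0.24 over 5). The order depended on the minimum level and on which cells were compared. With a minimum of 1 CPM, the median was 0.074 for the organic ion carriers and 0.027 for the ion carriers, and the vitamin and choline carriers led with 0.25. With only the cells of 20000 to under 40000 UMIs, the median of the mono- and dicarboxylate carriers was 0.0091, and with only the cells of 60000 or more UMIs that of the 3 phosphate and sulfate carriers was -0.034 in place of 0.17.

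**Figure D2:**
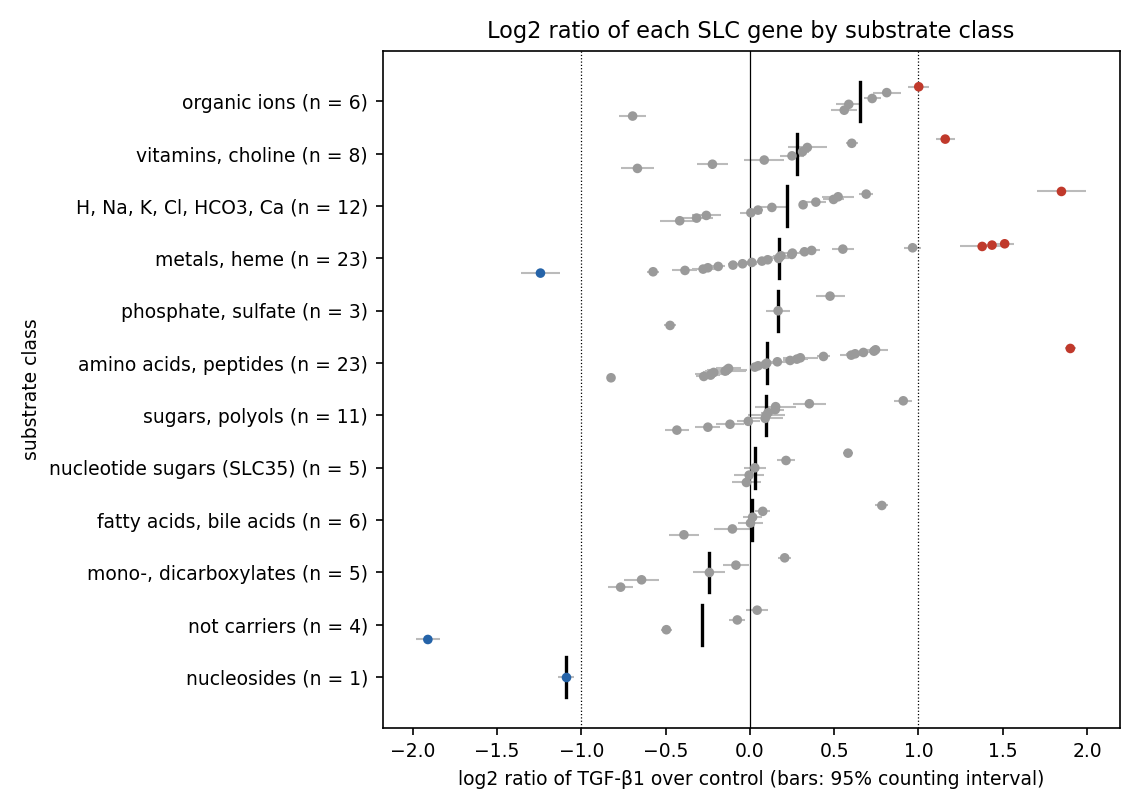
Log2 ratio of TGF-β1 over control (x axis) of each member, by substrate class (y axis, sorted by median), with 95% counting intervals as grey bars, class medians as black strokes and dotted lines at 2-fold. Red points are more than 2-fold higher and blue points more than 2-fold lower. The organic ion carriers have the highest median (0.66, but 0.074 with a minimum of 1 CPM), and each of the larger classes holds members on both sides of 0.

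Glutamate and cystine carriers stood at opposite ends of the amino acid class. *SLC1A3* (ENSECAG00000019371), which encodes a high-affinity glutamate and aspartate transporter, had 41.1 CPM in control and 153 CPM in TGF-β1 cells. This was 3.74-fold higher after TGF-β1 (log2 ratio 1.90, 1.87 to 1.94), the largest ratio of all 107 members. The interval of *SLC24A2* (1.85, 1.70 to 2.00) overlapped it. *SLC24A2* was ahead in the cells of 40000 to under 60000 UMIs (2.36 against 2.06) and in those with cycling markers (2.26 against 1.63), but not in the other subsets. The *SLC1A3* relatives *SLC1A7* (1.85 and 1.11 CPM, -0.74) and *SLC1A2* (1.30 and 0.856 CPM, -0.61), which also carry glutamate, were below the minimum and lower. *SLC7A11* (ENSECAG00000022696), the light chain of the antiporter that takes up cystine and releases glutamate, had the highest mean level of all members, and it was lower after TGF-β1. It had 369 CPM in control and 208 CPM in TGF-β1 cells (log2 ratio -0.82, -0.84 to -0.81). It remained the most abundant member in either library, although by a small margin after TGF-β1. *SLC3A2* (ENSECAG00000009822), the heavy chain that carries *SLC7A11*, *SLC7A5* and other light chains to the cell surface, had 186 and 190 CPM, a log2 ratio of 0.03 (0.01 to 0.05). Its direction depended on the cells compared, with -0.019 in the cells of 20000 to under 40000 UMIs and -0.029 in those of 40000 to under 60000 UMIs.

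The other carriers of neutral amino acids had ratios on both sides of 0. *SLC7A5* (ENSECAG00000009215), the light chain that takes up leucine and other large neutral amino acids, had 20.3 CPM in control and 32.5 CPM in TGF-β1 cells (log2 ratio 0.67, 0.62 to 0.73). *SLC43A1*, a carrier of the same group of amino acids that works without a heavy chain, had 11.9 and 19.9 CPM (0.75). The 8 members of family 38, the sodium-coupled neutral amino acid transporters, were split, with 4 higher and 4 lower. Among them, *SLC38A5* had 85.0 CPM in control and 142 CPM in TGF-β1 cells (0.74), and *SLC38A1* had 49.3 and 66.8 CPM (0.44). *SLC38A2*, a carrier that is well known to respond to amino acid shortage, differed by 0.05 only (118 and 122 CPM). The 4 lower members of the family were *SLC38A6* (-0.27), *SLC38A9* (-0.23), *SLC38A7* (-0.15) and *SLC38A10* (-0.13). The glutamine carrier *SLC1A5* differed by 0.09 (66.8 and 71.2 CPM). Within the heterodimeric transporters, the shared heavy chain thus differed little while *SLC7A5* was higher and *SLC7A11* lower. The lysosomal *SLC15A4* had a log2 ratio of 0.62, and *SLC36A4*, a high-affinity carrier of proline and tryptophan, had 0.60. All 3 members of family 6, *SLC6A17*, the glycine transporter *SLC6A9* and the creatine transporter *SLC6A8*, were lower, with log2 ratios between -0.23 and -0.14. *SLC6A17* was at 0.17 in the cells of 20000 to under 40000 UMIs, and *SLC6A8* at 0.019 in those of 40000 to under 60000 UMIs and 0.59 in the cells with cycling markers.

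Genes of the amino acid response, in which the transcription factor ATF4 drives synthesis and uptake of amino acids, were split in the same libraries. Of the 17 genes of this list with at least 5 CPM, 8 were higher and 9 lower, with a median log2 ratio of -0.09, and 1 passed 2-fold, where 5.13% of all genes did. This was *ATF5*, with 323 CPM in the control and 149 CPM in the TGF-β1 library (-1.12, -1.14 to -1.10). *ATF4* itself had 667 and 599 CPM (-0.15). The highest ratio of the list was that of *MTHFD2*, a mitochondrial folate enzyme, with 148 and 283 CPM (0.94).

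In the class of metals and heme, 4 of 23 members were past 2-fold, 3 higher and 1 lower, where 5.13% of all genes were past it in either direction. Of these 4, *SLC41A2* and *SLC48A1* reached the minimum only through the library where they were high. *SLC40A1* (ENSECAG00000021609) encodes ferroportin, the iron exporter of the plasma membrane. It had 16.3 CPM in control and 46.5 CPM in TGF-β1 cells, 2.85-fold higher (log2 ratio 1.51, 1.46 to 1.57). *SLC11A2* (ENSECAG00000020056), the divalent metal transporter that moves iron out of endosomes, had 12.3 and 33.2 CPM, 2.71-fold higher (1.44), and it overlaps *HIGD1C* in the RefSeq annotation of another assembly. In the opposite direction, *SLC48A1* (ENSECAG00000031669), which moves heme out of the lysosome, had 9.79 CPM in control and 4.14 CPM in TGF-β1 cells (-1.24, -1.36 to -1.13). So the transcripts of an iron exporter and an iron importer were both higher, and that of the heme carrier was lower. *SLC39A14*, which takes up zinc and iron that is not bound to transferrin, had 46.5 and 39.1 CPM (-0.25).

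The partners of these carriers in iron handling differed too. Of the metal handling list, 6 of 11 genes found had at least 5 CPM, with 3 higher and 3 lower and a median log2 ratio of 0.02. *TFRC*, the transferrin receptor that feeds the endosomal iron route, had 31.6 CPM in control and 75.9 CPM in TGF-β1 cells (log2 ratio 1.27, 1.22 to 1.31). *CP*, ceruloplasmin, which oxidises the iron that ferroportin releases, had 3.89 and 9.23 CPM (1.25, 1.13 to 1.37). *CP* reached the minimum through the TGF-β1 library alone. No other gene of the list with at least 5 CPM passed 2-fold, where 5.13% of all genes did. *NCOA4* (0.20) and *ATP7A* (-0.16) had small ratios. *FTH1*, the heavy chain of the iron store ferritin, was abundant and lower, with 1819 CPM in control and 1010 CPM in TGF-β1 cells (-0.85, -0.86 to -0.84), and its count may share reads with near-identical ferritin copies. *HMOX1*, the enzyme that breaks down heme, had 30.9 and 20.4 CPM (-0.60).

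Zinc and magnesium carriers made up most of the rest of the metal class. Among the zinc importers of family 39, 6 of 9 were higher, and among the exporters of family 30, 4 of 5. *SLC30A7* (ENSECAG00000014071), which loads zinc into the Golgi, had the highest mean of the class, with 132 CPM in the control and 157 CPM in the TGF-β1 library (log2 ratio 0.25, 0.23 to 0.27). *SLC39A13*, a zinc carrier of internal membranes whose loss causes a connective tissue disorder in humans, had 23.0 and 44.9 CPM (0.97, 0.92 to 1.02), just under 2-fold. Lower ratios were found for the zinc importer *SLC39A1* at 72.0 and 48.4 CPM (-0.57) and for the plasma membrane exporter *SLC30A1* at 15.7 and 12.0 CPM (-0.38). *SLC41A2* (ENSECAG00000021263), a magnesium carrier, had 2.99 CPM in control and 7.77 CPM in TGF-β1 cells (1.38, 1.25 to 1.51), while its relatives *SLC41A1* (-0.04) and *SLC41A3* (-0.28) were not higher. The copper importer *SLC31A1* had 15.2 and 22.3 CPM (0.55).

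All 3 members among the sodium-calcium exchangers were higher after TGF-β1. *SLC24A2* (ENSECAG00000020101), a potassium-dependent exchanger, had 2.31 CPM in control and 8.33 CPM in TGF-β1 cells, from 487 and 1831 UMIs (log2 ratio 1.85, 1.70 to 2.00). It reached the minimum only through the TGF-β1 library. *SLC8A1* (ENSECAG00000004050), the sodium-calcium exchanger best known from heart muscle, had 34.1 and 55.1 CPM (0.69, 0.65 to 0.73). *SLC24A3* had 6.88 and 9.89 CPM (0.52). Below the minimum, *SLC8A2* was lower, with 3.15 CPM in the control and 0.719 CPM in the TGF-β1 library (-2.13, -2.39 to -1.88).

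The carriers of acid and base equivalents differed less. *SLC4A7* (ENSECAG00000000767), which imports sodium and bicarbonate, had the highest mean of the ion class, with 147 CPM in the control and 183 CPM in the TGF-β1 library (log2 ratio 0.32, 0.29 to 0.34). The chloride and bicarbonate exchanger *SLC4A2* had 15.9 and 22.4 CPM (0.50). *SLC12A9* was lower (6.57 and 4.92 CPM, -0.42), although its ratio was 0.15 in the cells with cycling markers. For *SLC12A2*, a sodium, potassium and chloride carrier, a difference was not detectable (17.1 and 17.2 CPM, 0.01, -0.06 to 0.07). Of the list of partners that set the gradients and the surface level of carriers, 9 of the 11 genes with at least 5 CPM were higher, against 50.0% of all genes, and 0 passed 2-fold, against 5.13%. The highest ratio was that of the sodium pump subunit *ATP1B1*, with 63.9 and 112 CPM (0.81), and the lower genes were *SGK1* (-0.48) and *OXSR1* (-0.11). Of the osmotic response list, *AKR1B1* had 65.0 and 88.9 CPM (0.45) and *NFAT5* a log2 ratio of -0.07.

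Among the phosphate and sulfate carriers, the phosphate importer *SLC20A1* (ENSECAG00000014112) had 74.1 CPM in the control and 53.3 CPM in the TGF-β1 library (log2 ratio -0.47, -0.51 to -0.44). *SLC26A2*, which supplies sulfate for the sulfation of proteoglycans, had 8.83 and 12.3 CPM (0.48, 0.39 to 0.56). In the Golgi, *SLC35A2*, which brings in UDP-galactose, had 61.6 and 92.2 CPM (0.58, 0.55 to 0.61), while *SLC35A3*, *SLC35A4* and *SLC35A5* differed by less than could be detected.

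The glucose carrier *SLC2A1* was higher, and the monocarboxylate carriers had smaller ratios of either sign. *SLC2A1* (ENSECAG00000000303), the basal glucose transporter of most cells, had 20.2 CPM in control and 37.9 CPM in TGF-β1 cells, 1.88-fold higher (log2 ratio 0.91, 0.86 to 0.96). In the cells with 20000 to under 40000 UMIs, its ratio was 1.30 and passed 2-fold. The other members of family 2 that are sorted with the sugars lay between -0.12 and 0.15. *SLC50A1*, the member of the sugar class with the highest mean, had 42.8 and 46.1 CPM (0.11), and *SLC37A3*, of the sugar phosphate family, had the lowest ratio of the class (18.1 and 13.4 CPM, -0.43). Of the monocarboxylate carriers, *SLC16A1*, which carries lactate and pyruvate, had 44.0 and 50.8 CPM (0.21, 0.17 to 0.25). Its relative *SLC16A3*, known for lactate export from glycolytic cells, had 9.24 and 7.83 CPM (-0.24), but its ratio was 0.42 in the cells with 20000 to under 40000 UMIs. *SLC16A11*, which overlaps *BCL6B* in that annotation, had 18.9 and 11.1 CPM (-0.77, -0.84 to -0.69). *BSG*, the chaperone that both lactate carriers need to reach the surface, had 539 and 583 CPM (0.12).

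Vitamin and choline carriers were higher in 6 of 8 members. *SLC46A2* (ENSECAG00000018603), first described in thymic stroma, had 17.0 CPM in the control and 38.0 CPM in the TGF-β1 library (log2 ratio 1.16, 1.10 to 1.22). *SLC44A1*, the main choline transporter-like protein, had 51.6 and 78.5 CPM (0.60, 0.57 to 0.64), and its relative *SLC44A2* had 10.2 and 6.41 CPM (-0.67, -0.76 to -0.57). *SLC23A2* (ENSECAG00000014874), the sodium-coupled ascorbate transporter of most tissues, had 42.3 and 52.6 CPM (0.31, 0.27 to 0.35). Its ratio was 0.54 in the cells of 40000 to under 60000 UMIs and 0.15 in those of 60000 or more. The directions differed within the choline family.

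The organic ion carriers were higher in 5 of 6 members. *SLC22A15* (ENSECAG00000020117) had 14.4 CPM in the control and 28.8 CPM in the TGF-β1 library (log2 ratio 1.00, 0.94 to 1.07). It lay on the 2-fold limit, and a median-of-ratios size factor put it at 0.99. *SLC22A17*, a receptor for lipocalin 2, had 8.78 and 15.4 CPM (0.81), the vesicular nucleotide carrier *SLC17A9* had 23.9 and 39.5 CPM (0.73), and the lysosomal sialic acid carrier *SLC17A5* had 10.8 and 15.9 CPM (0.56). The exception was the urate transporter *SLC2A9*, with 16.1 and 9.97 CPM (-0.70, -0.77 to -0.62). This class had 34 of its 40 genes below 5 CPM, among them *SLC22A4* with 6.45 and 3.05 CPM (-1.08).

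The single nucleoside carrier that reached the minimum was lower. *SLC29A1* (ENSECAG00000008083), the equilibrative nucleoside transporter that takes up adenosine, had 48.7 CPM in control and 22.9 CPM in TGF-β1 cells, 2.13-fold lower (log2 ratio -1.09, -1.14 to -1.04). In the class of fatty acid, acetyl-CoA and bile acid carriers, *SLC10A7* had 40.8 and 70.2 CPM (0.78, 0.75 to 0.82) and *SLC10A3* had 11.5 and 8.75 CPM (-0.39). For 3 of the 6 members of that class, a difference was not detectable.

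The lowest ratio belonged to a gene that shares the name but is no carrier. *SLC2A4RG* (ENSECAG00000020369), a zinc finger protein that binds the enhancer of the glucose transporter gene *SLC2A4*, had 36.3 CPM in control and 9.66 CPM in TGF-β1 cells, 3.76-fold lower (log2 ratio -1.91, -1.98 to -1.84). *SLC9A3R2*, a scaffold protein of sodium and proton exchangers, had 84.4 and 59.9 CPM (-0.50). A difference in *SLC7A6OS* was not detectable (0.04, -0.02 to 0.11).

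The ratios of the 10 genes past 2-fold had the same sign within each of 5 subsets of cells. The genes were picked by their ratios over all kept cells, and the subsets are parts of those cells. Agreement in sign was thus largely set by the choice of genes. The subsets were 779 control and 1753 TGF-β1 cells with 20000 to under 40000 UMIs, 2065 and 1907 cells with 40000 to under 60000 UMIs, 1021 and 853 cells with 60000 or more UMIs, 3780 and 4415 cells without 3 or more cycling markers, and 85 and 98 cells with them. *SLC1A3* ranged from 1.63 to 2.14, *SLC40A1* from 1.30 to 1.59, *SLC11A2* from 1.21 to 1.63 and *SLC48A1* from -1.40 to -1.07. *SLC41A2* was under 2-fold in the cells with cycling markers (0.78), and so were *SLC22A15* (0.64) and *SLC29A1* (-0.94). In the cells with 60000 or more UMIs, *SLC22A15* (0.91) and *SLC29A1* (-0.98) were under 2-fold and *SLC39A13* (1.03) was past it. Of all 107 members, 73 kept the sign of their ratio in all 5 subsets.

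**Figure D3:**
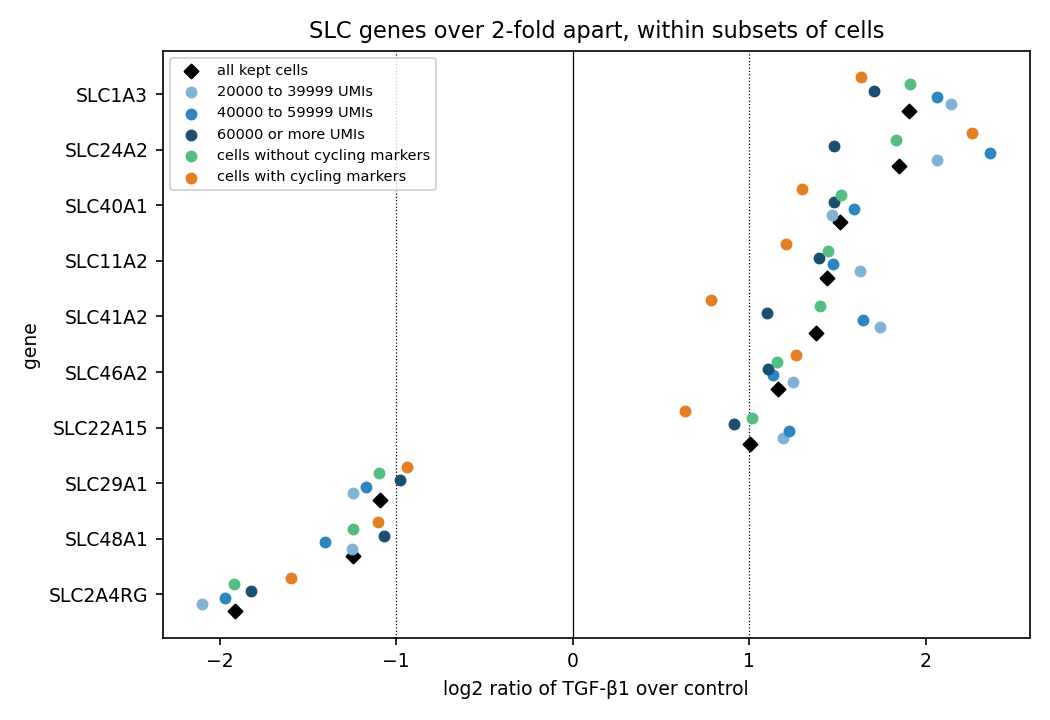
Log2 ratio of TGF-β1 over control (x axis) of the 10 genes past 2-fold (y axis) in all kept cells (black diamonds) and in 5 subsets of cells by UMIs per cell or cycling markers (coloured points), with dotted lines at 2-fold. The genes were picked by their ratios over all kept cells, of which the subsets are parts. No point crosses 0, and *SLC41A2*, *SLC22A15* and *SLC29A1* have points inside the 2-fold lines.

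Higher levels went with a larger share of cells in which the transcript was found. After every cell was thinned to 20000 UMIs, *SLC1A3* was found in 38.1% of control cells (36.6% to 39.6%) and in 85.6% of TGF-β1 cells (84.5% to 86.6%). Without thinning, the shares were 56.5% and 94.2%. *SLC40A1* was found in 24.3% and 52.9% of thinned cells (47.4% and 74.9% unthinned), and *SLC11A2* in 20.3% and 45.0% (43.8% and 72.5%). Each of these carriers was thus found in a minority of thinned control cells. *SLC24A2* was rare in either library, found in 2.98% and 11.2% of thinned cells (7.06% and 20.2%). On the lower side, *SLC29A1* went from 57.5% to 34.2% (81.7% and 57.5%) and *SLC48A1* from 16.9% to 7.38% (38.6% and 17.7%). *SLC7A11* was found in 92.1% and 83.5% of thinned cells (97.5% and 92.7%). The heavy chain *SLC3A2* was found in 96.0% and 96.8% of thinned cells (99.7% and 99.8%). No other cell type that should lack these genes was at hand to measure free RNA. Shares at the level of the rarest members cannot be told apart from it.

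**Figure D4:**
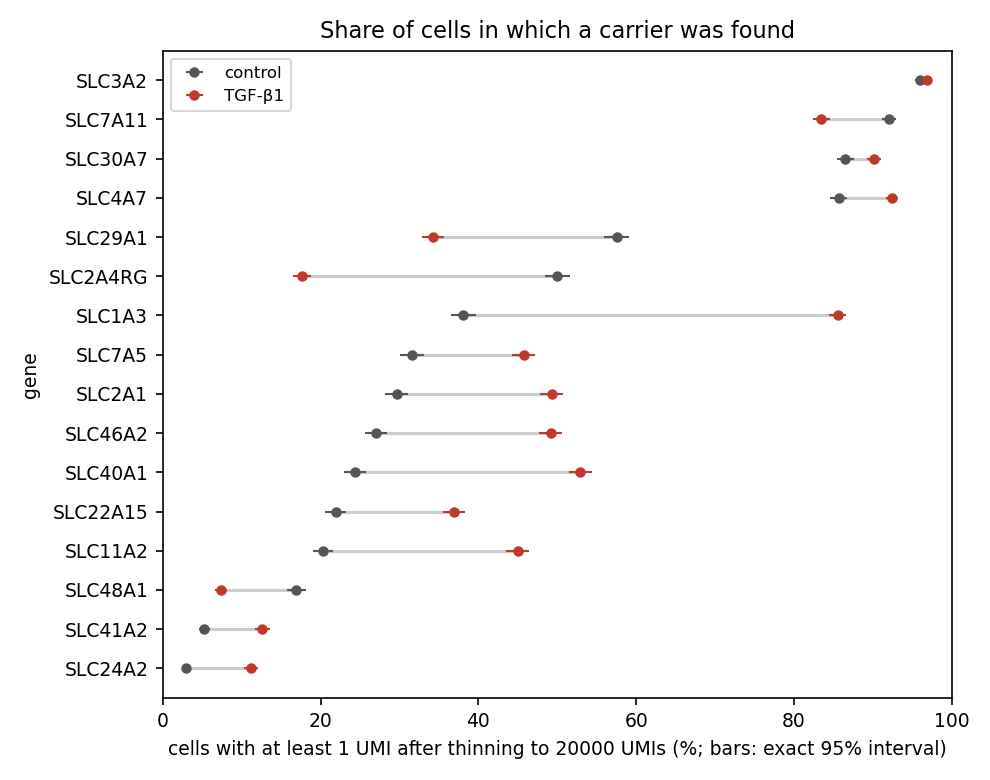
Share of cells (x axis, in percent) with at least 1 UMI of each of 16 genes (y axis) after thinning to 20000 UMIs per cell, in the control (grey) and TGF-β1 (red) libraries, with exact 95% intervals. *SLC1A3* shows the widest gap, from 38.1% to 85.6%, and *SLC3A2* the narrowest, from 96.0% to 96.8%.

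Some carriers varied widely from cell to cell. For a transcript spread at random over cells, the variance of thinned counts equals their mean. For other transcripts, the value of variance over mean can rise with the mean. Over the 107 members, the median of variance over mean was 1.11 in both libraries, against 1.13 and 1.12 over all 9357 genes. The 5 members with the highest values were the same in both libraries, *SLC7A11*, *SLC1A3*, *SLC4A7*, *SLC23A2* and *SLC8A1*. *SLC7A11* stood apart with 7.61 in the control and 4.85 in the TGF-β1 library, at means of 7.07 and 3.94 UMIs per thinned cell. Its counts reached 142 UMIs in a single thinned control cell, while it was not found in 7.89% of control cells, and 33.0% of its control UMIs lay in the tenth of cells with the most. *SLC1A3* had a variance over mean of 2.67 and 2.43. The tenth of cells with the most held 54.1% of its UMIs in control and 29.7% in TGF-β1 cells, and the share of cells with 2 or more of its UMIs went from 18.2% to 66.6%. Both shares depend on the mean, which was 0.791 and 3.07 UMIs per thinned cell, so evenness over cells was not compared. *SLC23A2* had 2.31 and 2.14, *SLC4A7* 2.34 and 2.14, and *SLC8A1* 2.25 and 2.39. How much of this spread lies between mares was not tested.

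**Figure D5:**
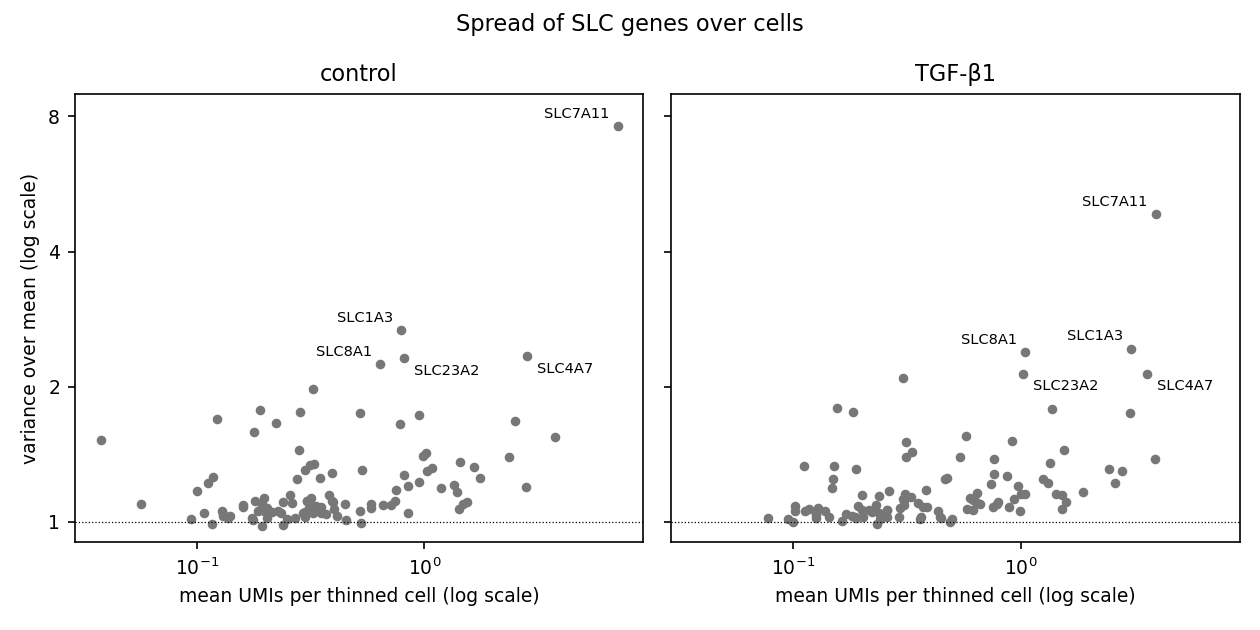
Variance over mean of the UMIs per thinned cell (y axis, log scale) against the mean (x axis, log scale) for the 107 members in the control (left) and TGF-β1 (right) libraries. The dotted line marks a value of 1, and *SLC7A11* lies highest in both libraries, at 7.61 and 4.85.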

How the data were processed

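UMI counts per gene and cell barcode were deposited by the authors for the control and the TGF-β1 library, unnormalised and before the study's cell filters. Cell Ranger was run against EquCab3.0 with the Ensembl 109 annotation (version 7.1.0 in the submitters' notes, 8.0.1 in the file headers). Kept cells were summed per library and scaled to CPM. Each UMI marks 1 transcript end, so CPM were not divided by length. Ratios carry exact binomial (Clopper-Pearson) intervals at the 95% level for counting error only. No test was possible with 1 library per condition. Cells given MFGE8 were not analysed here, and the study's genotype calls of mares and doublets were not repeated. Cycling markers were 9 genes, of which a cell needed 3 after thinning. The ratio code was tested on simulated data. Python 3.11.15, numpy 2.4.6, scipy 1.17.1, pandas 2.3.3 and matplotlib 3.10.9 were used.

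The members and lists were chosen with earlier results of these data known. Named are all members past 2-fold, and in each class of 3 or more the highest mean and the largest ratio in each direction. Also named are *SLC3A2* and its light chains among the members, the genes next to 5 CPM, and the 5 widest spreads over cells per library. Other genes named, whether past 1.5-fold or not, and the separation of the non-carriers were chosen after their values were seen. By symbol, 105 members matched RefSeq genes of another assembly, where 27 overlap another protein-coding gene, among them *SLC11A2*, *SLC30A7* and *SLC16A11*. Beyond these overlaps, no positions or sequences were used. A planned search of promoters for motifs was not run. Some single genes of the lists are not reported here.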

Additional observations from a re-analysis of the deposited data

How the results depend on the processing

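No paired analysis was possible because the cells of the same 4 mares were pooled in each library and were not assigned to mares here, which leaves 1 sample per condition. Depth limits the rarest members, and differences between mares or repeated cultures are not in any interval. The cells with 3 or more cycling markers were compared as an alternative chosen after seeing the data. The cause of the shifts below was not tested.

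Class medians were set against the medians of their members' lower and upper interval bounds. All stayed between these with all deposited barcodes, removal of the cells above the 98th percentile of UMIs and cells from 10000 UMIs. The same held with mitochondrial shares up to 6%, the other scalings and the cells without cycling markers. The members past 2-fold stayed at 7 higher and 3 lower under these, except for 6 higher with a median-of-ratios size factor or with mitochondrial genes left out of the total, where *SLC22A15* no longer passed. The same 107 members were kept in all subsets of cells. A limit of 1.5-fold gave 20 higher and 8 lower members, a minimum of 1 CPM gave 9 and 6 past 2-fold, and a minimum of 10 CPM gave 5 and 2. The minimum of 1 CPM moved the ion class to 0.027 and the organic ions to 0.074. A minimum of 10 CPM moved nucleotide sugars to 0.21, vitamins and choline to 0.46 and carboxylates to -0.083. In cells with 20000 to under 40000 UMIs, 8 members were higher and 4 lower by more than 2-fold, and the medians were 0.0091 (carboxylates, reversed), -0.063 (fatty and bile acids), -0.33 (non-carriers), 0.11 (nucleotide sugars), 0.48 (organic ions) and 0.37 (phosphate and sulfate), and *SLC3A2* reversed to -0.019. In cells with 40000 to under 60000 UMIs, the medians were 0.18 (all members), 0.25 (amino acids), 0.32 (ions), 0.15 (nucleotide sugars), 0.74 (organic ions) and 0.35 (phosphate and sulfate), and *SLC3A2* reversed to -0.029. In cells with 60000 or more UMIs, 7 members were higher (*SLC39A13* in place of *SLC22A15*) and 2 lower, and the medians were -0.39 (carboxylates), 0.19 (vitamins and choline) and -0.034 (phosphate and sulfate, reversed). In cells with cycling markers, 8 members were higher and 2 lower by more than 2-fold, and the medians were 0.32 (ions), -0.38 (carboxylates), -0.17 (non-carriers), 0.16 (nucleotide sugars), 0.54 (organic ions) and -0.012 (phosphate and sulfate, reversed), while *SLC12A9* reversed to 0.15 and *SLC2A10* to -0.53.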

Other observations

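Of the 38 SLC genes of 1 to under 5 CPM, the 2 more than 2-fold higher were *SLC43A2*, a carrier of large neutral amino acids related to *SLC43A1*, with 2.76 CPM in the control and 6.28 CPM in the TGF-β1 library (log2 ratio 1.18, 1.04 to 1.33), and *SLC38A8* with 0.508 and 1.67 CPM (1.72, 1.40 to 2.04). The 3 more than 2-fold lower were *SLC22A4* and *SLC8A2*, given above, and *SLC15A3*, a lysosomal peptide and histidine carrier, with 1.95 and 0.341 CPM (-2.52, -2.89 to -2.16). *SLC15A3* and its relative *SLC15A4* thus had ratios of opposite sign. *SLC7A7*, another light chain of *SLC3A2*, had 3.60 and 3.73 CPM (0.05, -0.09 to 0.20), and a difference was not detectable. The rarer light chains *SLC7A8* (26 and 64 UMIs, 1.24, 0.56 to 1.95) and *SLC7A10* (10 and 68 UMIs, 2.70, 1.74 to 3.83) were higher.

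Several carriers that are best known from other tissues reached the minimum in both libraries. *SLC45A2*, known from pigment cells, had 15.2 CPM in the control and 12.8 CPM in the TGF-β1 library, *SLC10A5*, known from liver, had 25.3 and 25.6 CPM, and *SLC3A1*, the heavy chain of kidney and gut, had 6.12 and 7.53 CPM. In the RefSeq annotation of another assembly, *SLC10A5* overlaps *ZFAND1* and *IMPA1*, and *SLC3A1* overlaps *PREPL*. Whether their UMIs come from these carriers was not tested. All genes in this section were picked with their values in view.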
